A study of Mus musculus with 6 samples.

Results

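AMPA receptors are the ion channels that carry most fast excitatory transmission in the brain, and the 10 genes described here encode their 4 pore subunits (Gria1, Gria2, Gria3 and Gria4) and 6 transmembrane AMPA receptor regulatory proteins, or TARPs (Cacng2, Cacng3, Cacng4, Cacng5, Cacng7 and Cacng8). They were chosen by name, through the annotation of the array, out of 18193 genes with a probe set that names a single gene. The brightest probe set of a gene, by its mean, stood for the gene, and its other probe sets served as a check. All 10 passed the filter on dim probe sets, and 9 of them had more than 1 probe set, which made 22 probe sets in all. RNA came from 3 auditory brainstem nuclei of male C57BL/6J mice at postnatal day 14 (P14) and at postnatal day 3 (P3), measured on 6 Affymetrix mouse genome arrays. At P14 these were the VCN (ventral part of the cochlear nucleus), the MNTB (the trapezoid body's medial nucleus) and the LSO (lateral superior olive), each 1 pool of tissue from 3 mice. At P3 they were the same nuclei, each 1 pool from 6 mice. The labels give no transgene and no treatment of the animals, and all values below are log2 units after robust multi-array averaging (RMA).

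Pore subunits assemble as tetramers, and the mix sets how the channel works. GluA2, the product of Gria2, makes the channel nearly impermeable to calcium once its messenger RNA has been edited at the glutamine to arginine site, whereas channels without it admit calcium and are blocked by polyamines. GluA4 and GluA3 are known from the fast synapses of mature auditory brainstem neurons, such as the calyx of Held on MNTB principal cells, where little GluA2 is known to remain. TARPs carry receptors to the membrane and to the synapse and slow or speed their gating. Type I TARPs (Cacng2, Cacng3, Cacng4 and Cacng8) and type II TARPs (Cacng5 and Cacng7) differ in sequence and in how strongly they do so.

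With 1 array for each nucleus and age, the age difference was repeated over 3 nuclei and a difference between nuclei over 2 ages. Per the labels it is unknown if the 3 nuclei at an age share their mice, in which case they are regions of 1 pool. The p-values measure that repetition and not the spread between animals. In such bulk tissue fewer cells of a type and less RNA per cell cannot be told apart. The arrays had medians of 6.27 to 6.31, and their number limits the precision. The 3' minus 5' probe set difference of Gapdh, which tracks RNA and amplification quality, was 1.06 to 1.11 at P14 and 1.21 to 1.41 at P3. That difference and the number of pooled mice both went with age and cannot be told apart from it. Dissection could be read from markers: the glycine transporter gene Slc6a5 lay highest in MNTB, at 13.02 at P14 and 12.50 at P3. Of the other listed markers of glycinergic neurons, Slc32a1 also lay highest in MNTB at both ages. Gad1 did so at P3 only, and at P14 it lay higher in LSO (9.70) than in MNTB (9.01). The vesicular glutamate transporter gene Slc17a6 lay highest in VCN, at 11.04 at P14 and 11.06 at P3. The list of cerebellar granule cell markers, many of which granule cells of the cochlear nucleus share, summed to 12.47 in VCN at P14 and 13.11 in VCN at P3, against 7.67 to 9.59 on the other arrays. Zic1 made up most of that sum in VCN, and the listed genes went both ways with age there. Gabra6 (7.97 at P14, 3.61 at P3) and Cbln3 (8.54 and 5.27) were higher in VCN at P14. Zic1 (11.84 and 12.45), Zic2 (9.83 and 11.14) and Neurod1 (8.97 and 9.90) were higher in VCN at P3. The choroid plexus list summed to 12.62 in VCN at P14, against 7.49 to 7.80 on the other 5 arrays. Ttr alone, at 12.58 there, made up most of that sum, and Folr1 (6.26), Clic6 (5.48) and Kl (4.98) were below the filter on their mean. The motor neuron list summed to 11.45 in LSO at P14 and 12.25 in LSO at P3, against 6.73 to 8.23 elsewhere. Prph made up most of that sum, at 10.87 in LSO at P14 and 11.86 in LSO at P3. Slc5a7 (9.61 and 9.40) and Isl1 (7.10 and 8.91, below the filter on its mean) also lay highest in LSO. The list's defining gene Chat stayed at 3.68 to 4.03 on all arrays, within the range of unspiked control probe sets (2.84 to 4.42). Which cells of the LSO tissue gave the signals of this list was not tested. The part these sources of RNA had in the results below was not tested.

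**Figure D1:**
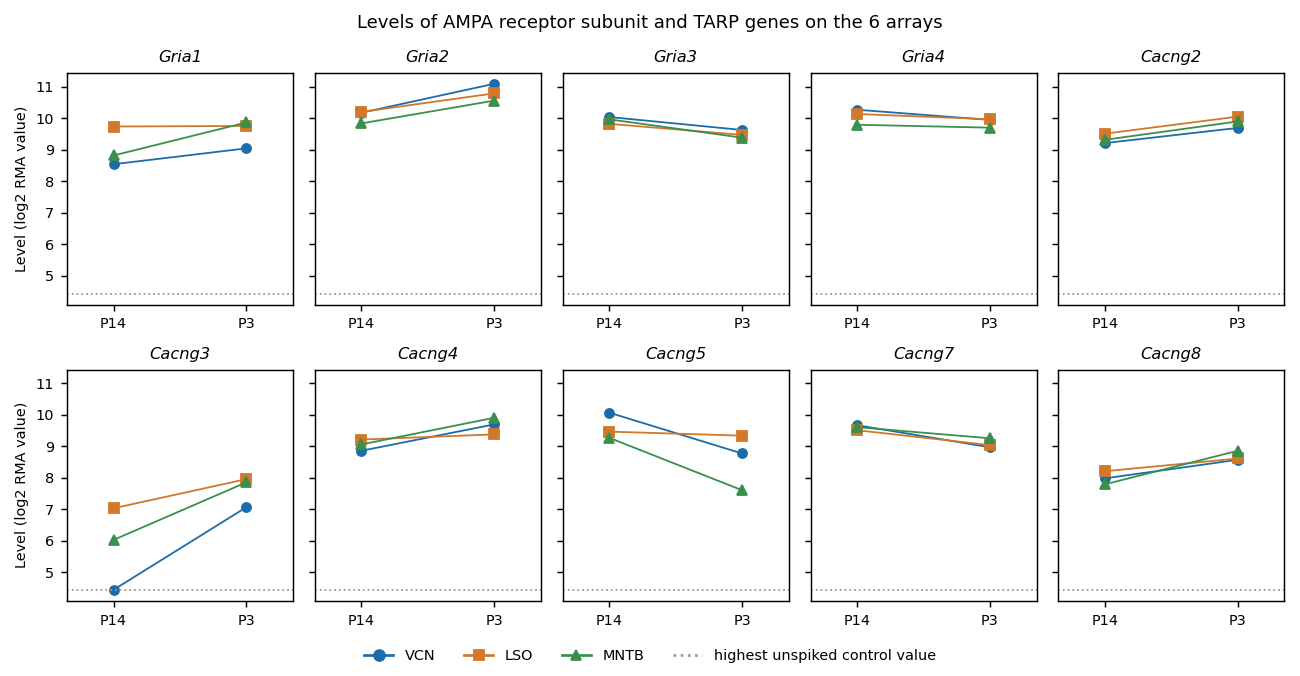
Level of each of the 10 genes (y axis, log2 RMA value, same scale in every panel) at P14 and at P3 (x axis), with 1 point per array and 1 line per nucleus; the dotted line is the highest value of an unspiked control probe set (4.42). Levels of different genes come from different probe sets and are not comparable; Cacng3 in VCN at P14 lies at the dotted line.

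All 4 type I TARP genes and Gria2 were lower at P14, while both type II TARP genes and Gria3 were higher. The median age difference was -0.65 over the type I TARP genes, 0.77 over the type II TARP genes and 0.03 over all genes tested. In limma's test 8 of the 10 genes passed an adjusted p of 0.05 for age, 3 higher and 5 lower. Over all 12958 genes tested 41.0% passed, 23.4% higher and 17.7% lower. Of the 10 genes 4 passed without either MNTB array and 6 without either VCN array. The count over all genes tested fell too, from 5317 to between 3142 and 4710 with an array left out. Leaving out either array of a nucleus takes that nucleus out of the age difference, so both give the same difference. With arrays centred on the median of the tested genes, 3 of the 10 were higher and 6 lower, as Gria1 then passed too, and the higher share of all genes called was 44.7% in place of 57.0%. The sign was the same in all 3 nuclei for 10 of 10 genes, against 67.9% of all genes tested. The 3 arrays of P14 did not overlap the 3 of P3 for 7 of the 10, against 53.6% of all genes tested. Gria1, Gria4 and Cacng5 were the genes whose ages overlapped.

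Gria2 fell, with a negative difference in each nucleus (-0.92 in VCN, -0.72 in MNTB and -0.59 in LSO). It stood at 10.17 in VCN, 9.84 in MNTB and 10.20 in LSO at P14, against 11.09 in VCN, 10.56 in MNTB and 10.79 in LSO at P3. Every P14 array lay below every P3 array. The difference was -0.75 ± 0.09 (standard error, 3 nuclei, adjusted p = 0.00233, limma), or 1.68-fold lower at P14. It passed without each of the 6 arrays in turn, that is, with each of the 3 nuclei taken out of the age difference. The other probe sets of Gria2 fell further, by 0.87 and by 1.36, the greater fall in a probe set that lay between 8.38 and 9.05 at P14 and between 9.83 and 10.41 at P3.

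Gria3, which encodes GluA3, rose. It measured 10.04 in VCN, 9.96 in MNTB and 9.82 in LSO at P14, against 9.63 in VCN, 9.38 in MNTB and 9.47 in LSO at P3. The ages did not overlap, and the difference was 0.45 ± 0.09 (adjusted p = 0.0125). A second probe set gave 0.83, with 0.94 in VCN, 0.47 in LSO and 1.07 in MNTB. With either MNTB array left out, the difference of Gria3 was 0.38 and did not pass (adjusted p = 0.0891 without that of P14 and 0.0870 without that of P3).

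Gria4, the gene of GluA4, did not pass. Its level was 10.27 in VCN, 9.79 in MNTB and 10.14 in LSO at P14, against 9.95 in VCN, 9.70 in MNTB and 9.97 in LSO at P3. The 3 differences were positive, but MNTB at P14 lay below VCN and LSO at P3. The mean difference was 0.20 with a 95% interval from -0.03 to 0.42 (adjusted p = 0.134). A second probe set gave 0.23, and the dimmest, with levels of 5.01 to 6.12, had age differences of 0.17 in LSO, -0.13 in VCN and -0.81 in MNTB.

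Gria1, which encodes GluA1, differed between ages most in MNTB. It stood at 8.54 in VCN, 8.82 in MNTB and 9.74 in LSO at P14, against 9.04 in VCN, 9.87 in MNTB and 9.75 in LSO at P3. The difference was -1.05 in MNTB, -0.50 in VCN and -0.02 in LSO. A second probe set repeated this order, with -1.05, -0.40 and -0.11. Over the 3 nuclei Gria1 did not pass, at -0.52 ± 0.19 (adjusted p = 0.0776). It did pass without either LSO array, at -0.78 (adjusted p = 0.0319 without that of P14 and 0.0331 without that of P3), and with arrays centred on the median of the tested genes, at -0.62 (adjusted p = 0.0412). Whether its age difference varies between nuclei was not tested, since each nucleus had 1 array per age.

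Since Gria2 was lower at P14 and Gria3 higher, the balance of their signals shifted. The change of Gria2 minus that of Gria3 was -1.33 in VCN, -1.31 in MNTB and -0.94 in LSO. Set against Gria4, the change of Gria2 differed by -1.24 in VCN, -0.82 in MNTB and -0.76 in LSO. These values compare changes and not amounts of the subunits, and they were not tested. Set against Gria1 the change of Gria2 was lower in VCN (-0.42) and LSO (-0.57) but higher in MNTB (0.32).

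**Figure D2:**
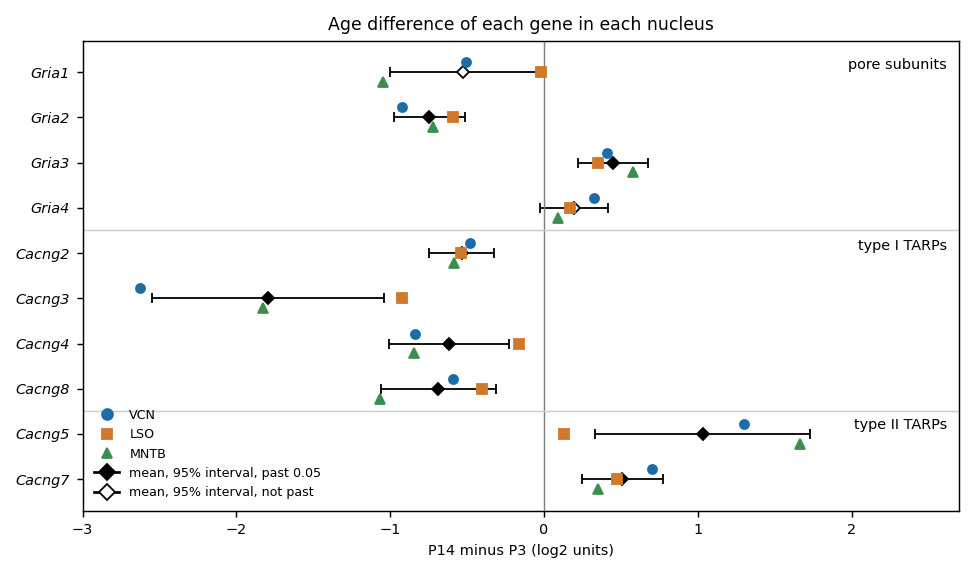
Age difference, P14 minus P3 in log2 units (x axis), of each gene (rows, grouped as pore subunits, type I and type II TARPs); coloured points are single nuclei, diamonds the mean over the 3 nuclei with its 95% interval from limma, filled where the adjusted p is under 0.05. The 4 type I TARPs lie left of 0 in every nucleus and the 2 type II TARPs right of it; LSO is the nucleus nearest to 0 for Gria1, Gria2, Gria3, Cacng3, Cacng4, Cacng5 and Cacng8.

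Among type I TARPs, Cacng3, which encodes the TARP gamma-3 known mainly from the forebrain, fell most. It measured 4.44 in VCN, 6.02 in MNTB and 7.03 in LSO at P14, against 7.06 in VCN, 7.85 in MNTB and 7.95 in LSO at P3. In VCN at P14 it lay just above the highest unspiked control value of all arrays (4.42). The difference was -1.79 ± 0.31 (adjusted p = 0.00655), or 3.47-fold lower at P14. In single nuclei it was -2.62 in VCN, -1.83 in MNTB and -0.93 in LSO, and of the tested genes 0.3%, 0.7% and 4.6% had a lower difference in these nuclei. The value in VCN rests on a signal at the level of unspiked controls, where a lower level could not be read; without that array the mean was -1.38 (adjusted p = 0.00705). Cacng3 has 1 probe set. With age alone in the model it did not pass (adjusted p = 0.0580).

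Cacng2 encodes stargazin, the TARP lost in stargazer mice. It stood at 9.21 in VCN, 9.31 in MNTB and 9.51 in LSO at P14, against 9.69 in VCN, 9.90 in MNTB and 10.05 in LSO at P3. The fall was the most even of the 10 genes, at -0.48 in VCN, -0.54 in LSO and -0.58 in MNTB, with a mean of -0.54 ± 0.09 (adjusted p = 0.00553). Its other probe sets gave smaller differences, -0.33 (adjusted p = 0.0510 over all probe sets) and -0.05. Taking the median over its probe sets, Cacng2 was at -0.25 and did not pass (adjusted p = 0.0963).

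Cacng4, whose TARP gamma-4 is known from developing brain and from glia, also fell. It stood at 8.85 in VCN, 9.05 in MNTB and 9.21 in LSO at P14, against 9.69 in VCN, 9.90 in MNTB and 9.37 in LSO at P3. The mean difference was -0.62 ± 0.16 (adjusted p = 0.0253), with -0.84 in VCN, -0.85 in MNTB and -0.16 in LSO. A second probe set gave a mean of -0.62 too, and -0.36 in LSO. Cacng4 did not pass without either VCN array, at -0.51 (adjusted p = 0.0721 and 0.0755), or without either MNTB array, at -0.50 (adjusted p = 0.124 and 0.129).

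Cacng8, the gene of gamma-8, the main TARP of the hippocampus, fell too. It measured 7.98 in VCN, 7.79 in MNTB and 8.20 in LSO at P14, against 8.57 in VCN, 8.85 in MNTB and 8.61 in LSO at P3, with no overlap. The difference was -0.69 ± 0.15 (adjusted p = 0.0157). A second probe set, at 6.93 to 7.28 on all arrays, had -0.14 (adjusted p = 0.445 over all probe sets). Without either MNTB array the fall of Cacng8 was 0.50 and did not pass (adjusted p = 0.0736 and 0.0783).

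Both type II TARP genes rose. Cacng5, whose gamma-5 is known from Bergmann glia of the cerebellum and acts on calcium-permeable receptors, rose most of the 10 genes. It stood at 10.06 in VCN, 9.26 in MNTB and 9.46 in LSO at P14, against 8.77 in VCN, 7.60 in MNTB and 9.33 in LSO at P3. MNTB at P14 lay below LSO at P3, so the ages overlapped. The difference was 1.67 in MNTB, 1.30 in VCN and 0.13 in LSO, and the mean 1.03 ± 0.28 (adjusted p = 0.0320). Its second probe set gave 1.29, 1.09 and 0.32 in the same nuclei. Cacng5 did not pass without either VCN array, at 0.90 (adjusted p = 0.0877 and 0.0888), without either MNTB array, at 0.71 (adjusted p = 0.132 and 0.131), or with age alone in the model (adjusted p = 0.103).

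Cacng7, whose gamma-7 is known from cerebellar neurons, rose less and more evenly. Its level was 9.66 in VCN, 9.60 in MNTB and 9.50 in LSO at P14, against 8.96 in VCN, 9.25 in MNTB and 9.03 in LSO at P3. All 3 arrays of P14 lay above all 3 of P3. The mean was 0.51 ± 0.11 (adjusted p = 0.0129), and the second probe set had 0.46 (adjusted p = 0.0579 over all probe sets). Without either LSO array Cacng7 did not pass, although its difference was slightly greater at 0.53 (adjusted p = 0.0540 and 0.0536).

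Set against Cacng2, the change of Cacng7 was higher by 1.18 in VCN, 1.01 in LSO and 0.94 in MNTB, and that of Cacng5 by 1.78, 0.67 and 2.25 in the same nuclei. The gamma subunit genes Cacng1 and Cacng6, which are no TARPs and are known from muscle, measured 5.17 to 5.75 and 5.67 to 5.88. Cacng1 was below the filter. Cacng6 did not pass, at -0.03 (adjusted p = 0.882).

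**Figure D3:**
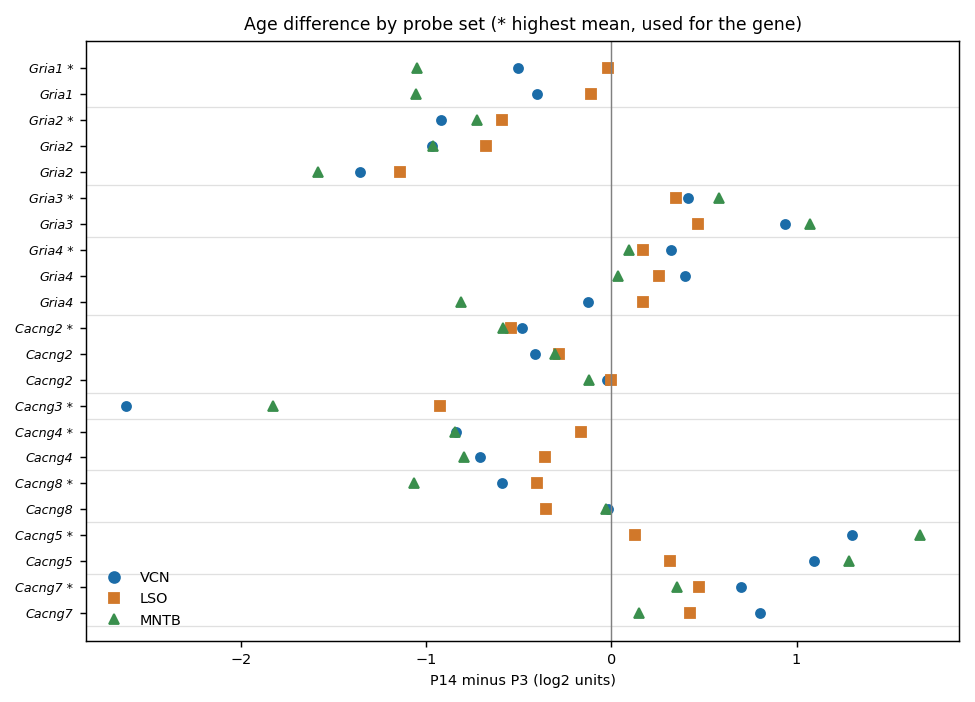
Age difference, P14 minus P3 in log2 units (x axis), for each of the 22 probe sets of the 10 genes (rows, by gene, brightest first and starred), with 1 point per nucleus. All probe sets of Gria2, Gria3, Cacng4, Cacng5 and Cacng7 keep the side of 0 of the starred one; the dimmest probe sets of Gria4, Cacng2 and Cacng8 do not repeat the size or the sign (Gria4 -0.26, Cacng2 -0.05, Cacng8 -0.14 over the 3 nuclei).

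Cell type markers moved between the same arrays. For comparison, 23.4% of all genes tested rose and 17.7% fell. Of 8 tested neuronal markers 2 rose and 3 fell, with a median of 0.14, and their summed level was 15.28 to 15.53 at P14 and 15.21 to 15.49 at P3. Those that rose were Eno2 (0.51) and the synaptic gene Snap25 (0.28). The 3 that fell were Rbfox3 (-1.12), the synaptic vesicle gene Syt1 (-1.03) and Stmn2 (-0.86), each with its lowest difference in MNTB (-1.72, -1.68 and -1.05). Of 8 astrocyte markers 5 rose and 2 fell, with sums of 14.84 to 15.04 at P14 and 14.30 to 14.55 at P3. Of 7 markers of oligodendrocyte precursors, which carry AMPA receptors too, 4 rose and 2 fell, with sums of 13.33 to 13.70 at P14 and 13.25 to 13.55 at P3. Gpr17 (1.29), Sox10 (1.04), Olig2 (0.53) and Olig1 (0.24) rose, whereas Pdgfra (-0.59) and Ptprz1 (-0.95) fell in each nucleus. Cspg4, at 0.055, did not pass, so the list does not show that precursors as such rose. All 5 tested myelin markers rose, and their sum was 15.14 to 15.27 at P14 and 12.88 to 14.05 at P3. Of the 3 listed markers of Bergmann glia, Slc1a3, also in the astrocyte list, was lower (-0.82) and Gdf10 and Hopx did not pass, at 0.14 and 0.38, with sums of 11.62 to 11.82 at P14 and 11.97 to 12.30 at P3. Of 5 microglia markers 3 rose, with sums of 11.46 to 11.75 at P14 and 10.79 to 11.32 at P3. The part of these cells in the age differences of the receptor genes was not tested.

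RefSeq (GRCm38.p6) gave a stretch before the annotated start for 7 of the 10 genes. Shown are the 150 bases upstream of the start for Gria2 and Cacng3, which fell, for Cacng5 and Cacng7, which rose, and for Gria4, so that genes with opposite differences can be set side by side. For Cacng5 the start shown is the one whose stretch held matches. The stretches of its second start and of Cacng2 and Cacng8, which fell, are not printed, so the display is a selection. Capitals mark matches on either strand to the letters GGGCGG (known as the GC box) or CCAAT (the box named for its letters); these motifs were chosen with the expression values known.
Gria2 (chr3:80802836-80802985, minus strand): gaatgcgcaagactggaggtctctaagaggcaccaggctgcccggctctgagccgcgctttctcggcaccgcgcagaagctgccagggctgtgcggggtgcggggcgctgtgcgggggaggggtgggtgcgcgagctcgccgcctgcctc
Cacng3 (chr7:122671594-122671743, plus strand): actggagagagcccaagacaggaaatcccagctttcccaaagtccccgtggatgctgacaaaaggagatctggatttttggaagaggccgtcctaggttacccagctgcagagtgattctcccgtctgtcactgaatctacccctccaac
Cacng5 (chr11:107915056-107915205, minus strand): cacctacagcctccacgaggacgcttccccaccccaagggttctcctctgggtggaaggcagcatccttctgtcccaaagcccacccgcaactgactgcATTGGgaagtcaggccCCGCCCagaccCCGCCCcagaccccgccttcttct
Cacng7 (chr7:3332675-3332824, plus strand): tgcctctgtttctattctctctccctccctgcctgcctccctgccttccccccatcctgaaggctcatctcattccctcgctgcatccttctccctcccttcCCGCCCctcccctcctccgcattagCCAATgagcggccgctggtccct
Gria4 (chr9:4796235-4796384, minus strand): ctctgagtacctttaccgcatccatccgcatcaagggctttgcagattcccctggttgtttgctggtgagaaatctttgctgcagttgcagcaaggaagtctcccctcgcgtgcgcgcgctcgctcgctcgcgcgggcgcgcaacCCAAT

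The GC box occurred in the stretches of Cacng5 (2 matches) and Cacng7 (1 match) and in 28.6% of all 32851 such stretches in the table. The CCAAT box occurred in those of Gria4, Cacng5 and Cacng7, once each, and in 24.5% of all stretches. The stretches of Gria2, Cacng2, Cacng3 and Cacng8 held neither in these letters, nor did that of a second start of Cacng5. No match of one motif overlapped a match of the other (0 overlaps). Gria2 had the highest share of G and C of the 7 genes with a stretch, 72.0%. Cacng3 had 52.7% and Cacng8 the lowest share, 43.3%, and the median over the table was 54.0%. These matches describe letters in the window and show no binding.

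Genes that act with the receptor changed both ways with age. The list of auxiliary and assembly proteins other than TARPs held 15 genes with a probe set, all tested, of which 5 rose and 5 fell, with a median of 0.06 against 0.03 over all genes tested. Over all genes tested 23.4% rose and 17.7% fell. Those that fell were Cnih2, Gsg1l, Shisa7, Shisa6 and Shisa9, whereas Cnih1 (0.06), Syndig1 (0.34) and Prrt1 (0.21) did not pass. Cnih2, a cornichon protein that slows the channel's closing, differed most. It measured 7.38 in VCN, 7.48 in MNTB and 7.81 in LSO at P14, against 8.90 in VCN, 9.29 in MNTB and 9.25 in LSO at P3. It fell by 1.59 ± 0.12 (adjusted p = 0.000595). Gsg1l, a claudin relative that binds the receptor, fell by 1.36 ± 0.09 (adjusted p = 0.000456), and of the Shisa family Shisa7 fell by 1.05, Shisa6 by 0.89 and Shisa9 by 0.89. Shisa6 did not pass once VCN at P3 was left out (adjusted p = 0.0501) or without either MNTB array (0.0841 and 0.0842). Cnih3 had -0.71 and did not pass (adjusted p = 0.0592). Those that rose were Abhd6, Sacm1l (0.82), Abhd12 (0.59), Frrs1l (0.52) and Porcn (0.43), and Frrs1l is known for a part in receptor assembly. Abhd6, a lipase that limits surface delivery of the receptor, rose by 0.94 ± 0.14 (adjusted p = 0.00367).

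The list of scaffolds and clustering proteins held 17 genes with a probe set, 16 of them tested, of which 4 rose and 5 fell (23.4% and 17.7% of all genes tested), with a median of -0.14. Akap5, which anchors kinases beside the receptor, fell by 1.60 ± 0.13 (adjusted p = 0.000690). Grip1, a PDZ protein that binds the tails of GluA2 and GluA3, fell by 1.55 ± 0.13 (adjusted p = 0.000787). Dlg1, which encodes the GluA1 partner SAP97, rose by 1.11 ± 0.12 (adjusted p = 0.00141), whereas Dlg4, which encodes the TARP-binding scaffold PSD-95, fell by 0.76 ± 0.20 (adjusted p = 0.0283). Dlg4 did not pass without either MNTB array, at -0.46 (adjusted p = 0.0789 and 0.0847). The size of its fall depended on the probe set rule, at -1.23 with the median over its probe sets (adjusted p = 0.000867, limma). Nsf, an ATPase that binds GluA2, rose by 0.73 (adjusted p = 0.0136), but not when its probe sets were summarised by their median (0.20, adjusted p = 0.200) or without either MNTB array (0.0617 and 0.0621). Nptx2, a pentraxin that clusters receptors, had -2.07 in VCN, -1.35 in MNTB and -0.02 in LSO, the same order of nuclei as Cacng3. Its mean of -1.15 passed narrowly (adjusted p = 0.0498) and held in 8 of 17 alternatives. It did not pass without either VCN array, at -0.69 (adjusted p = 0.133 and 0.138), or by the median over probe sets, at -0.70 (0.0629), and it was -1.71 without either LSO array.

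Of 3 RNA editing enzymes tested, 1 rose and 1 fell (23.4% and 17.7% of all genes tested). Adarb1 encodes ADAR2, the enzyme known to edit the glutamine to arginine site of the Gria2 messenger. It measured 10.95 in VCN, 9.46 in MNTB and 9.74 in LSO at P14, against 9.01 in VCN, 8.96 in MNTB and 8.83 in LSO at P3. All P14 arrays lay above all P3 arrays, and the rise was 1.12 ± 0.26 (adjusted p = 0.0183), with 1.93 in VCN, 0.91 in LSO and 0.51 in MNTB. Without either LSO array Adarb1 did not pass (adjusted p = 0.0553 and 0.0565), and without either VCN array its rise was 0.71. Adarb2, for which no editing activity is known, fell by 0.91 ± 0.15 (adjusted p = 0.00510), and Adar did not pass, at 0.07 (adjusted p = 0.679), with a sign that turned under 4 alternatives.

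**Figure D4:**
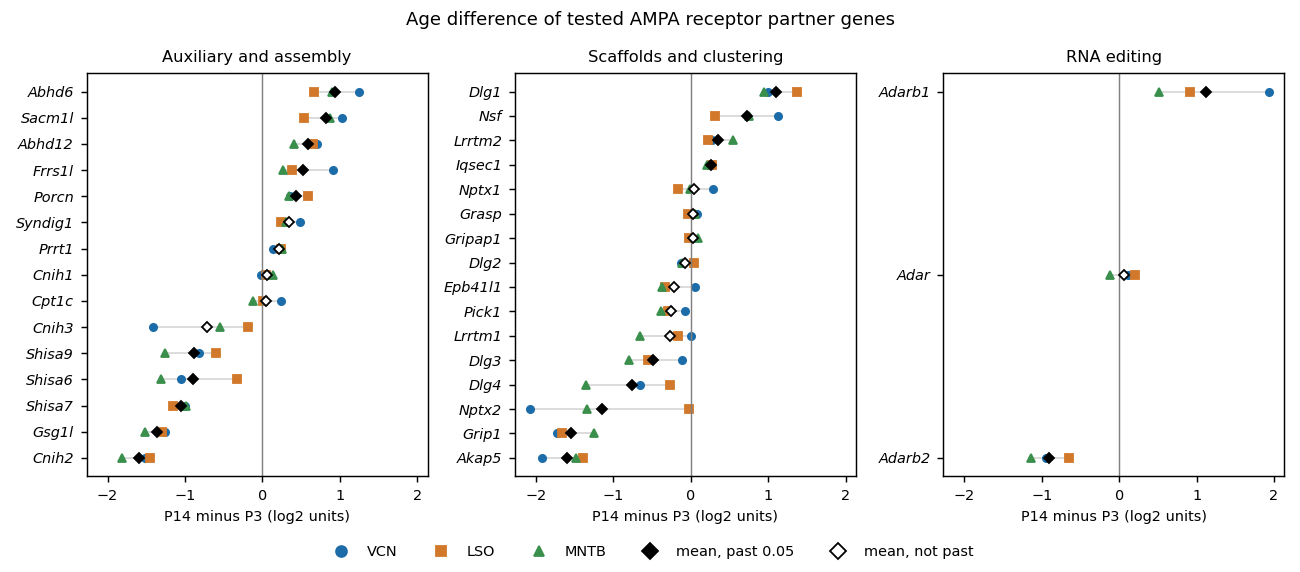
Age difference, P14 minus P3 in log2 units (x axis), of the tested genes of 3 lists (panels, genes as rows ordered by their mean); coloured points are single nuclei and diamonds their mean, filled where limma's adjusted p is under 0.05. Cnih2, Gsg1l, Shisa7, Akap5 and Grip1 lie near or beyond -1 in all 3 nuclei, and Adarb1 is spread from 0.51 in MNTB to 1.93 in VCN.

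Between nuclei, no gene of the 10 passed in any of the 3 contrasts. For MNTB minus LSO limma called 0 of 10, where 0.162% of all genes tested passed, and 3 of the 10 had an unadjusted p under 0.05, as had 6.80% of all genes. For MNTB minus VCN it called 0 of 10, against 0.602% of all genes, with 4 at an unadjusted p under 0.05, against 9.53%. For VCN minus LSO it called 0 of 10, against 0.370%, with 3 at an unadjusted p under 0.05, against 8.98%. In all 30 comparisons were made, and the smallest adjusted p was 0.204, for Cacng3 between VCN and LSO. These contrasts rest on 2 ages, and their intervals were wide.

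The greatest differences between nuclei were those of Cacng3, Cacng5 and Gria1. Cacng3 for VCN minus LSO was -2.59 at P14 and -0.89 at P3, a mean of -1.74 with a 95% interval from -2.66 to -0.82. With VCN at P3 left out that difference passed, at -2.36 (adjusted p = 0.0359). Cacng3 for MNTB minus VCN was 1.59 at P14 and 0.79 at P3 (mean 1.19, interval 0.26 to 2.11, adjusted p = 0.389). Gria1 for VCN minus LSO was -1.20 at P14 and -0.71 at P3 (mean -0.95, interval -1.54 to -0.37, adjusted p = 0.282). Cacng5 for MNTB minus VCN was -0.80 at P14 and -1.17 at P3 (mean -0.98, interval -1.84 to -0.13, adjusted p = 0.436). Cacng5 for MNTB minus LSO was -0.20 at P14 and -1.73 at P3 (mean -0.96, adjusted p = 0.671). For MNTB minus VCN, Gria2 had -0.34 at P14 and -0.53 at P3 (adjusted p = 0.286), and Gria4 had -0.48 at P14 and -0.25 at P3 (adjusted p = 0.363). Gria3 differed by 0.03 for MNTB minus LSO (interval -0.25 to 0.31), -0.16 for MNTB minus VCN and 0.19 for VCN minus LSO, and all 3 intervals held 0.

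**Figure D5:**
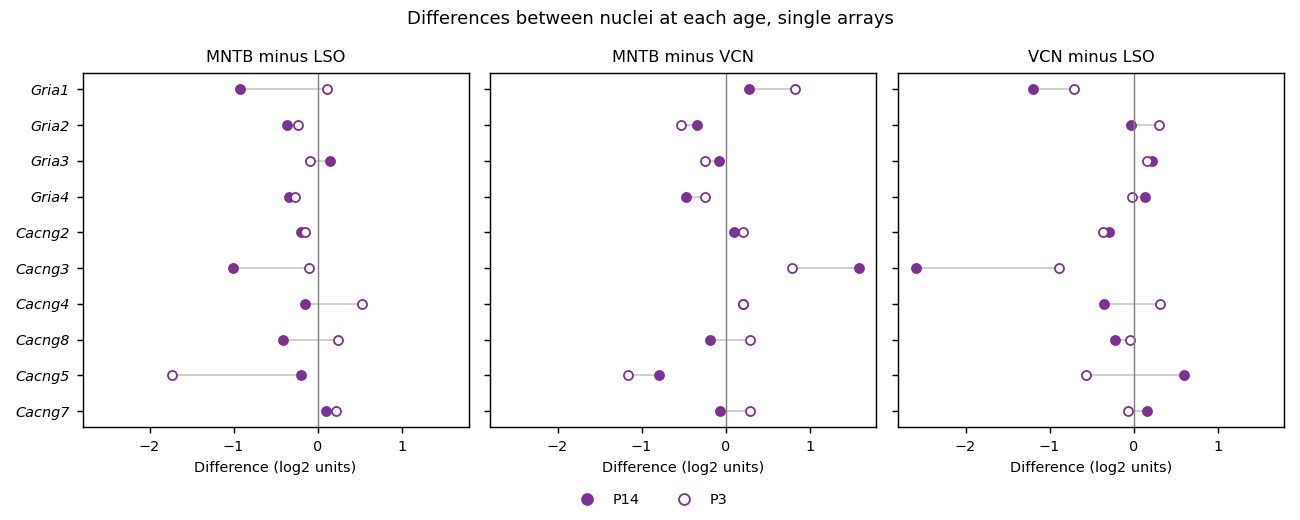
Difference between 2 nuclei in log2 units (x axis; panels for MNTB minus LSO, MNTB minus VCN and VCN minus LSO) of each gene (rows) at P14 (filled) and at P3 (open), each from single arrays. Cacng3 lies far left of 0 for VCN minus LSO at both ages, and Cacng5 lies on opposite sides of 0 at the 2 ages in that panel (0.60 at P14, -0.57 at P3).

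Genes outside the family with the most similar pattern were sought among 3437 tested genes that varied by at least 1 log2 unit. For Gria1 they were Hpcal4 (Pearson r 0.98 over the 6 arrays), Ankrd6 (0.96) and Pgr (0.95), and 4 genes reached 0.95. For Gria2 they were Acer2 (0.996), Ttc28 (0.995) and Chic2 (0.994), among 116 genes at or above 0.95. For Gria3 they were Oxsm (0.995), Arhgef3 (0.995) and Gramd1b (0.990), among 85 such genes. For Gria4 they were Ankrd35 (0.997), Ankrd50 (0.992) and the potassium channel subunit gene Kcnab1 (0.978), among 5 such genes. With 6 arrays that share age and nucleus, these values describe the pattern only, and not its size. Gria3 and Gria4 themselves varied by 0.66 and 0.57 over the arrays, less than the 1 log2 unit asked of the other genes. Kcnab1 had an age difference of 1.81, against 0.20 for Gria4.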

How the data were processed

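Per the labels' protocols, nuclei came from 200 µm slices, and 20 ng of RNA per pool was amplified (Nugen) and labelled with biotin. The authors deposited log2 values per probe set made with RMA, per the submitters' processing notes, with no version or array definition given in the sources used here. Of 45101 probe sets, 34945 named 1 gene in the platform annotation, 932 several and 9160 none, beside 64 controls. Each gene took its brightest probe set by mean, and sets ending in _x_at only where no other existed. The 12958 genes with a mean at or above the 40th percentile of probe sets (5.57) were tested. The fit used limma 3.58.1 under R 4.3.3, additive in age and nucleus, with an intensity trend in the moderated variances and 2 residual plus 3.95 prior degrees of freedom. Two-sided p-values were adjusted by the Benjamini-Hochberg method over all genes tested, with a threshold of 0.05. The limma step was tested on simulated data, where the share of false calls was above the nominal threshold in each contrast. For age 22 of 220 calls were false. Between nuclei 17 of 210 were false for MNTB minus LSO, 13 of 207 for MNTB minus VCN and 35 of 232 for VCN minus LSO. Adjusted p-values just under 0.05 in the results should be read with that in mind. Marker sums are log2 of summed linear values. The 10 genes and the gene lists were chosen with earlier results of these data known. All 10 are named, as are up to 6 genes of each partner list by size of age difference; further partner genes and the markers were named after their values were seen. Alternatives changed the filter, the probe set rule, the scaling, the variance settings and the model, or left out each array. No scan or processing batch was known, so none was tested.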

Additional observations from a re-analysis of the deposited data

Results flagged for a closer look

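In 11 of 30 comparisons of 2 nuclei, spread over 8 of the 10 genes, the difference had opposite signs at P14 and at P3. Each value comes from single arrays, so no change of a difference with age was tested. In 1 case both differences were at least 0.5: Cacng5 for VCN minus LSO was 0.60 at P14 and -0.57 at P3, a shift of 1.17. Gria1 for MNTB minus LSO was -0.92 at P14 and 0.11 at P3, a shift of -1.03. Cacng4 shifted by -0.68 for MNTB minus LSO (-0.15 at P14, 0.53 at P3) and by -0.67 for VCN minus LSO (-0.36 at P14, 0.32 at P3). Cacng8 shifted by -0.66 for MNTB minus LSO (-0.42 at P14, 0.25 at P3) and by -0.48 for MNTB minus VCN (-0.19 at P14, 0.29 at P3). Cacng7 shifted by -0.35 for MNTB minus VCN (-0.06 at P14, 0.29 at P3) and by 0.23 for VCN minus LSO (0.16 at P14, -0.07 at P3). The others were Gria2 for VCN minus LSO at -0.33 (-0.03 at P14, 0.30 at P3), Gria3 for MNTB minus LSO at 0.23 (0.14 at P14, -0.09 at P3) and Gria4 for VCN minus LSO at 0.15 (0.13 at P14, -0.02 at P3).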

How the results depend on the processing

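No age difference of the 10 genes changed sign in the alternatives tried for it, 17 for Cacng3 and 18 for each other gene, and Gria2 passed in all 18. In most of these the sign could not turn. Each gene had the same sign in all 3 nuclei, so leaving out an array had to keep it. The filter, the variance settings and the model left the difference itself unchanged, and testing every probe set still read the brightest one of each gene. With each array left out in turn, the count over all genes for age (5317) lay between 3142 and 4710, and that among the 10 genes (8) between 4 and 8. The counts between nuclei were less stable when an array was left out. They were 4 to 99 for MNTB minus LSO (21 with all arrays), 17 to 215 for MNTB minus VCN (78) and 4 to 159 for VCN minus LSO (48), and of the 10 genes 0 to 1 passed for VCN minus LSO. The stricter filter at the 60th percentile gave 51 for MNTB minus VCN and 29 for VCN minus LSO, and left no value for Cacng3. Testing every probe set gave 9764 for age and 33 for MNTB minus LSO. Without age in the model the counts were 1 for MNTB minus LSO, 0 for MNTB minus VCN and 1 for VCN minus LSO. Signs turned for VCN minus LSO of Cacng5 with the median of probe sets (-0.11), and of Cacng4 with centring on the tested genes (0.0395), a scaling added after the data were seen. For age they turned for Adar under that centring (-0.0279) and under repeated quantile normalization (-0.015), and for Cacng6 under that normalization (0.0521). With an array left out, Adar for age ranged from -0.0025 to 0.16. For MNTB minus LSO, Gria3 ranged from -0.0732 to 0.13, Cacng3 from -1.20 to 0.10, Cacng4 from -0.15 to 0.53 and Cacng8 from -0.37 to 0.20. For MNTB minus VCN, Cacng7 ranged from -0.0324 to 0.26 and Cacng8 from -0.24 to 0.33. For VCN minus LSO, Gria4 ranged from -0.039 to 0.15, Cacng4 from -0.36 to 0.32, Cacng5 from -0.66 to 0.70, Cacng7 from -0.10 to 0.19 and Cacng8 from -0.34 to 0.0785. The cause of these shifts was not tested. The labels give no replicate numbers, but the model with nucleus as a term compares P14 with P3 within nuclei, a paired comparison. Without nucleus in the model Cacng3 (adjusted p = 0.0580) and Cacng5 (0.103) did not pass. Single arrays leave the spread between animals unmeasured, and Cacng3 in VCN at P14 lies at the level of unspiked controls.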
